A study of Mus musculus with 12 samples.

Results

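CD8+ and CD4+ donor T cells that had infiltrated the liver of the same mice were compared in a graft-versus-host disease (GVHD) model, in the donor genotype that lacked both STAT3 and PD-1 in T cells. The comparison used 4 of the 12 RNA-seq libraries of the study, 2 of CD8+ and 2 of CD4+ T cells, chosen by donor genotype and sorted subset and paired by their replicate number. Donors were STAT3ko PD-1ko C57BL/6 mice (STAT3-/- PD-1-/-), made by crossing a germline PD-1 deletion into mice whose floxed Stat3 alleles are removed by Cre under the Cd4 promoter. T cells of these donors were given with T cell-depleted bone marrow of wild-type C57BL/6 donors to lethally irradiated BALB/c recipients, and on day 6 after hematopoietic cell transplantation liver lymphocytes of 3 recipients were combined for each library and sorted as donor-type TCRβ+CD4+ or TCRβ+CD8+ cells. The other 8 libraries came from WT and STAT3ko (STAT3-/-) donors of the same design, 2 libraries for each genotype and subset. In all 3 genotypes the recipients and the bone marrow were wild-type, so the deletions were in the transferred T cells and not in the host. The 2 libraries of a subset will be called pool 1 and pool 2. The study's methods for T cell receptor sequencing speak of 2 batches, each combined from 3 mice, and library numbers in the sample titles divide by replicate number in all genotypes, so the 2 pools may be those batches. Subsets were compared within pools. P-values set that difference against a spread between pools that was estimated over the pools of all 3 genotypes and moderated over genes. Each of the 4 libraries held between 21676125 and 24016266 counts assigned to genes, and 12334 of 25078 genes were tested.

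CD4+ and CD8+ T cells are sister lineages that separate in the thymus. The factor ThPOK, encoded by Zbtb7b, keeps the CD4 fate, while Runx3 silences Cd4 and opens the Cd8 locus in the CD8 lineage. CD8+ T cells read peptides on MHC class I and kill by releasing perforin and granzymes, whereas CD4+ T cells read MHC class II and act largely through CD40 ligand and cytokines. In GVHD both subsets divide in lymphoid tissue, migrate to the liver and injure it, and PD-1 is an inhibitory receptor that restrains them there.

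The sorted identities held in all 4 libraries. Levels are given as CPM, counts scaled to a common library size with the trimmed mean of M values method. Cd4 stood at 1323 and 1242 CPM in CD4+ pools 1 and 2, and at 0.53 and 2.73 in the CD8+ pools. Cd8a stood at 595 and 589 CPM in the CD8+ pools and at 1.13 and 5.64 in the CD4+ pools. Cd8b1, the other chain of the CD8 coreceptor, was at 554 and 584 CPM in CD8+ and at 14.1 and 19.4 in CD4+ cells. The groups lay far apart for each of these 3 genes, yet the CD4+ pools held a trace of CD8 transcripts that was 0.189% and 0.957% of the paired CD8+ library for Cd8a and 2.54% and 3.3% for Cd8b1. In CD4+ cells of WT donors those shares were 0.042% and 0.0601% for Cd8a and 1.28% and 0.95% for Cd8b1. Cd8a itself was at 1191 and 1339 CPM in CD8+ cells of WT donors, above both CD8+ pools of STAT3-/- PD-1-/- donors. The pan-T cell genes Cd3e (610, 586, 604 and 614 CPM in CD4+ pools 1 and 2 and CD8+ pools 1 and 2) and Lck (920, 890, 784 and 788 CPM) were abundant in all 4 libraries and were not called. In bulk RNA, fewer cells of a kind and less RNA per cell cannot be told apart.

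The 2 deleted genes still gave counts, as summed exon counts can when part of a gene is removed. Pdcd1, encoding PD-1, was at 55.1 and 26 CPM in CD4+ pools 1 and 2 and at 93.6 and 65.6 CPM in CD8+ pools 1 and 2, below every WT library, where it ranged from 235 to 376 CPM. The residual Pdcd1 counts were higher in CD8+ cells (log2 fold change 1.04, SE 0.14, adjusted p = 0.00197), with the CD8+ library the higher one in both pools and no overlap between groups. The call was lost without the pool term (adjusted p = 0.118) and with pool 1 alone (adjusted p = 0.0526). Stat3 was at 157 and 219 CPM in CD4+ and at 154 and 235 CPM in CD8+ cells, against 369 to 467 CPM in WT libraries, and no difference between subsets was detected (0.04, SE 0.12, adjusted p = 0.874). Which exons each allele removes is not stated in the sources used here, so these gene-level counts do not test the deletions exon by exon.

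Of 12334 genes, 1774 (14.4%) differed between CD8+ and CD4+ T cells at an adjusted p under 0.05 by edgeR's quasi-likelihood test with the pool as a term. Of these, 727 (5.89%) were higher in CD8+ cells and 1047 (8.49%) in CD4+ cells. The median size of a called difference was 0.69 on the log2 scale, 582 genes differed by at least 2-fold, and 83 and 100 genes were at least 4-fold higher in CD8+ and CD4+ cells. The difference between subsets was alike in the 2 pools: across 8650 genes with a mean of at least 8 CPM, the pool 1 and pool 2 differences had a Pearson r of 0.931, a description over genes of the same libraries. Libraries did not overlap between the subsets in 5739 genes (46.5% of those tested) and in 1636 of the 1774 called. The count rests on the pairing and on both pools, since 511 genes were called without the pool term (203 higher in CD8+ and 308 in CD4+), and between 305 and 347 when a library of either pool was left out, which leaves 1 pair.

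**Figure D1:**
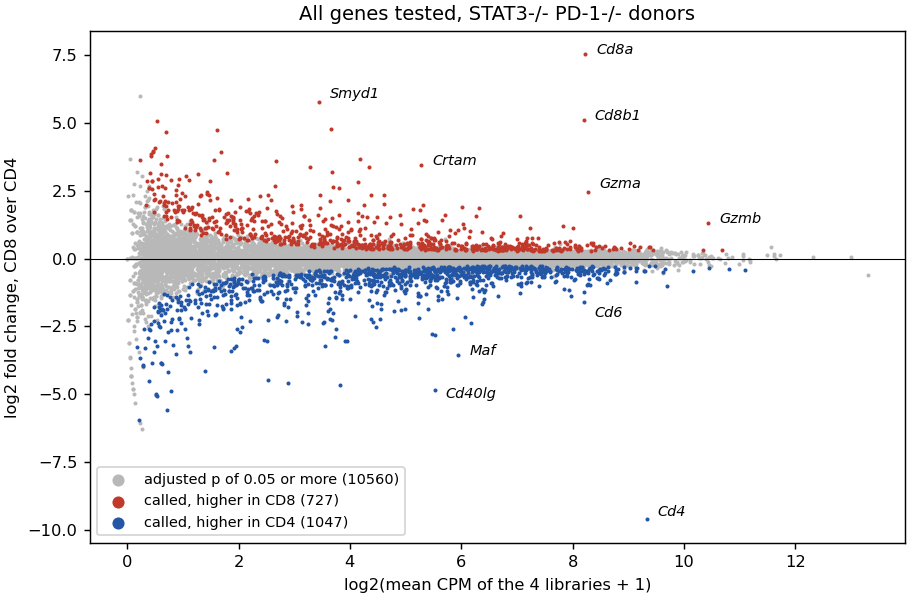
Difference between CD8+ and CD4+ T cells of STAT3-/- PD-1-/- donors for all 12334 genes tested. The x axis is log2 of the mean CPM of the 4 libraries plus 1, the y axis the log2 fold change of CD8+ over CD4+ cells, and colour marks the 727 genes called higher in CD8+ (red) and the 1047 called higher in CD4+ cells (blue). Cd8a and Cd4 lie farthest from 0 among the abundant genes.

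Where the mean log2 CPM reached 3 or more and the subsets stayed apart, the largest called differences included the coreceptors, at 7.52 for Cd8a (SE 0.46, adjusted p = 4.98e-05), 5.10 for Cd8b1 (SE 0.17, adjusted p = 5.91e-06) and -9.62 for Cd4 (SE 0.45, adjusted p = 1.51e-05). Beyond these, CD8+ cells were marked by Crtam, an adhesion receptor, at 65.9 and 73.1 CPM against 4.98 and 7.94 in CD4+ cells, a 10.9-fold difference (log2 3.44, SE 0.15). Adgrg1, encoding the adhesion receptor GPR56 of cytotoxic lymphocytes, was at 28.6 and 34.7 CPM in CD8+ and at 2.03 and 2.98 CPM in CD4+ cells. Cd244a, an NK-type receptor of the SLAM family, was at 34.8 and 23.6 CPM in CD8+ and at 4.2 and 3.93 CPM in CD4+ cells. Cerk (ceramide kinase), Adgrg5, Ccdc102a, BC035044 and Smyd1 complete the 10 largest, whose log2 fold changes ran from 2.82 to 7.52. Smyd1 came second on the CD8+ side, at 5.77, ahead of Cd8b1.

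On the CD4+ side, under the same limits of level and separation, Cd40lg differed most after Cd4. It encodes the ligand by which helper T cells activate B cells and dendritic cells. It was at 97.3 and 76.6 CPM in CD4+ and at 3.23 and 2.73 CPM in CD8+ cells (log2 -4.86, SE 0.12, adjusted p = 9.88e-07). Maf, a transcription factor of IL-21 and IL-10 producing helper cells, was at 132 and 91.8 CPM against 10.9 and 8.16. Il21 itself was at 114 and 45.5 CPM in CD4+ cells and at 13.4 and 7.84 CPM in CD8+ cells, so that pool 1 was the higher in both subsets while the subsets stayed apart. Lgals7 (galectin 7), St8sia1 (a ganglioside sialyltransferase), Iigp1 (an interferon-induced GTPase), Cybb (the NADPH oxidase subunit gp91phox), Cd109 and Dnase1l3 (a secreted DNase) made up the rest of the 10, with log2 fold changes between -2.77 and -4.67. All 20 of these genes were also called without the pool term and with either pair alone.

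**Figure D2:**
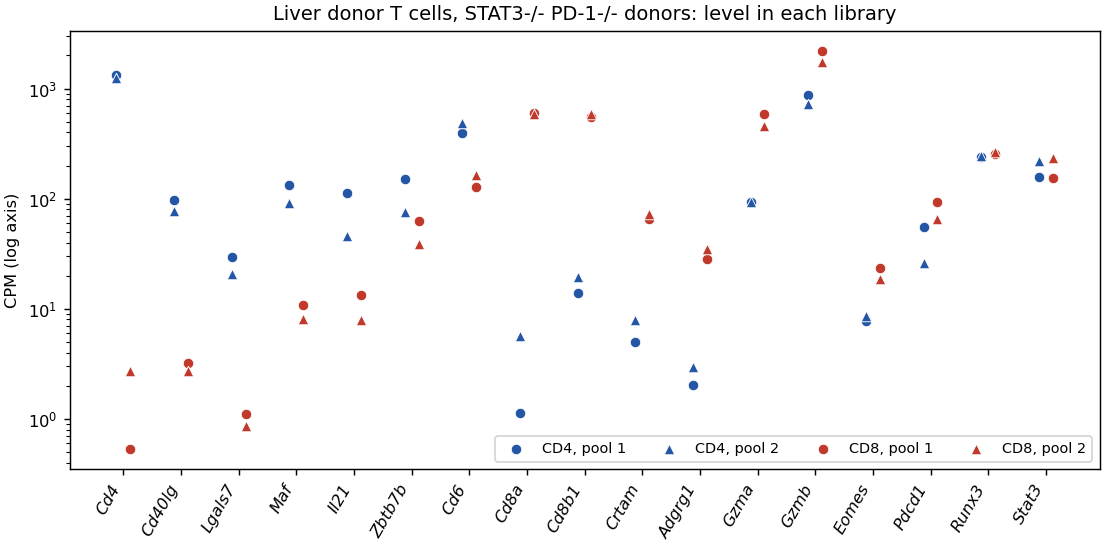
Level of 17 genes in each of the 4 libraries of STAT3-/- PD-1-/- donors, in CPM on a log axis. Blue marks CD4+ and red CD8+ T cells, circles pool 1 and triangles pool 2. Cd4 and Cd8a change places between the subsets, Gzmb is high in both, and Runx3 and Stat3 lie together.

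Of 20 genes tested of a list of coreceptors and lineage factors, 11 were called (55%), 3 higher in CD8+ and 8 in CD4+ cells, and 6 without the pool term. Zbtb7b was at 150 and 76.5 CPM in CD4+ and at 62.1 and 38.8 CPM in CD8+ cells (log2 -1.13, SE 0.10, adjusted p = 4.18e-04). CD4+ pool 2 lay close to CD8+ pool 1, and the call was lost without the pool term (adjusted p = 0.0724). Gata3, a factor of helper differentiation, was at 187 and 163 CPM in CD4+ and 96.1 and 91.1 CPM in CD8+ cells. Runx3 was at 242 and 245 CPM in CD4+ and at 255 and 263 CPM in CD8+ cells, and no difference was detected (log2 0.09, SE 0.11, adjusted p = 0.628).

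Several strong differences sat side by side in the genome. Of the 582 called genes of at least 2-fold, 99 (17%) had as a direct neighbour among tested genes another that differed in the same direction. This share was not compared with one for randomly placed genes. The 99 genes formed 36 runs of 2 genes and 8 runs of 3 or more. The longest was the granzyme cluster on chromosome 14 (mm10 chr14:56117619-56262334), where Gzme, Gzmd, Gzmf, Gzmc and Gzmb were higher in CD8+ cells by 1.6, 1.79, 1.82, 1.40 and 1.30 on the log2 scale. A second granzyme locus on chromosome 13 held Gzma, Gzmk and Esm1, at 2.46, 1.87 and 1.48. Ccdc102a, Adgrg5 and Adgrg1 were neighbours at chr8:94902869-95014208, with 3.39, 4.79 and 3.66. CD4+ runs included Iigp1 with Gm4951, Gm4841 and F830016B08Rik on chromosome 18, Oas2 and Oas3 with Dtx1 on chromosome 5, Ifi214, Ifi213 and Ifi209 on chromosome 1, and Pde2a, Art2a and Art2b on chromosome 7. Cd8b1 (chr6:71322788-71337492) and Cd8a (chr6:71373427-71379171) share a region with Smyd1 (chr6:71213940-71262281), a gene known from muscle, which was at 18.9 and 19.8 CPM in CD8+ and at 0.216 and 0.477 CPM in CD4+ cells. Near-identical granzymes, Gzmc to Gzmf above all, may exchange reads in counting, so their single values are uncertain.

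Genes of the cytotoxic granule were higher in CD8+ cells chiefly as granzymes and perforin. Of 24 tested, 14 were called (58.3%, against 14.4% of all genes), 10 higher in CD8+ and 4 in CD4+ cells, and 6 without the pool term. Gzma was at 593 and 455 CPM in CD8+ and at 94.3 and 94.2 CPM in CD4+ cells (5.51-fold, adjusted p = 1.79e-04). Gzmb was already abundant in CD4+ cells, at 872 and 722 CPM, and reached 2190 and 1735 CPM in CD8+ cells (2.46-fold). Per kilobase of exon, Gzmb stood at 577 and 477 CPM in CD4+ cells, above Cd4 itself at 429 and 402. Gzmk was at 138 and 110 CPM in CD8+ against 35.2 and 32.4, and Prf1 (perforin) at 372 and 254 against 166 and 107. Lamp1 and Ctsw were also higher in CD8+ cells. In the other direction lay Tnfsf10 (TRAIL), Srgn (serglycin, which packs granzymes into granules), Gzmm and Stx11. Tnfsf10 was at 61 and 51.1 CPM in CD4+ and 32.2 and 25.2 CPM in CD8+ cells. The calls of Srgn and Stx11 were lost in edgeR without the pool term (adjusted p = 0.247 and 0.522). Fasl (87.6, 34.8, 75.9 and 41.3 CPM) followed the pool and not the subset, and Nkg7, Rab27a, Unc13d and Serpinb6b were not called.

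Many promoters of this group held a short sequence named for RUNX factors. RefSeq promoter windows of GRCm38.p6, from 250 bases before to 50 bases after the start, were found for 9506 of the tested genes. The letters TGTGGT, the core that RUNX factors bind, or their reverse complement ACCACA, occurred in 12.8% of these 9506 windows. Of 22 granule genes with a window 12 held them (54.5%), among them 9 of the 13 called in either direction. Gzmm, higher in CD4+ cells, was among the 9, and Nkg7, Rab27a and Serpinb9, not called, also held a match. Among all genes at least 2-fold higher in CD8+ cells the share was 18.5%, and among those at least 2-fold higher in CD4+ cells 12.9%. The matches are descriptions of letters, and the chromosome 14 granzymes are copies of one another and thus not separate cases. Windows of Gzma, Gzmb, Gzmc, Gzmf and Prf1, shown because these genes carry the CD8+ difference, are printed 5′ to 3′ on the gene's strand with the matches in capitals.
Gzma, chr13:113100932-113101231, minus strand: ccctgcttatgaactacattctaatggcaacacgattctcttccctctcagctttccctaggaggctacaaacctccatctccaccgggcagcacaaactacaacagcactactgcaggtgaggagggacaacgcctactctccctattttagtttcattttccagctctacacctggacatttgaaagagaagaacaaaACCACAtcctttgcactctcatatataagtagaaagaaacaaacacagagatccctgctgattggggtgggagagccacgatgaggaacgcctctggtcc
Gzmb, chr14:56262285-56262584, minus strand: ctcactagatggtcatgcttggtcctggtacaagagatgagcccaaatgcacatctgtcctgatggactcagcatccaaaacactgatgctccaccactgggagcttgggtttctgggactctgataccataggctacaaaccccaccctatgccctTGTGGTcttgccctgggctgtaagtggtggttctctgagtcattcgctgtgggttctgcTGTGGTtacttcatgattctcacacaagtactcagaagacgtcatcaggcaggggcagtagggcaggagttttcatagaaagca
Gzmc, chr14:56234608-56234907, minus strand: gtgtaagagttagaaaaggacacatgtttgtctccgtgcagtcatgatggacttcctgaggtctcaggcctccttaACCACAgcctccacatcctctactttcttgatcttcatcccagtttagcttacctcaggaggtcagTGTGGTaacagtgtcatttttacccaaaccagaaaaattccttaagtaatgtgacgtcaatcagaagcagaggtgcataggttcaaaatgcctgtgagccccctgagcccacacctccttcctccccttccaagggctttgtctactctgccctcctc
Gzmf, chr14:56211358-56211657, minus strand: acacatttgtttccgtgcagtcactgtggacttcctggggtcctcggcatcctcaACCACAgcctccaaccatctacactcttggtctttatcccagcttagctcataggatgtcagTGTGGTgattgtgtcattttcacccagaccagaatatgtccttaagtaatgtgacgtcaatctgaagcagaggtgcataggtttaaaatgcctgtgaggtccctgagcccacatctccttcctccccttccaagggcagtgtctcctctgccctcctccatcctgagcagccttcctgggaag
Prf1, chr10:61297586-61297885, plus strand: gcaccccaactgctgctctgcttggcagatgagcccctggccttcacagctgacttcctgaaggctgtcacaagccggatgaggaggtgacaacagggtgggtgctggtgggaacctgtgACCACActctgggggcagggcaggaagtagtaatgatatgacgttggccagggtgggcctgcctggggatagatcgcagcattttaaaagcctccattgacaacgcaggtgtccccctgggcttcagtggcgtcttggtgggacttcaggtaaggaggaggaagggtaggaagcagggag
The window of Gzmk, which was 3.65-fold higher in CD8+ cells, held neither letter string.

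NK-type receptors leaned the same way. Of 23 tested, 7 were called (30.4%), 5 higher in CD8+ cells (Cd244a, Cd160, Klrk1, Klrc1 and Klrb1b) and 2 in CD4+ cells (Klrb1f and the adaptor Hcst), with 6 called without the pool term. Klrk1, encoding the activating receptor NKG2D, was at 218 and 179 CPM in CD8+ and 74.2 and 59.4 CPM in CD4+ cells (log2 1.57, SE 0.23, adjusted p = 0.00326). Cd160 was at 122 and 78 CPM in CD8+ against 33.9 and 20.5. The NK cell marker Ncr1 was at 0.0794 CPM or less in every library, and Klra4 and Klra8, encoding Ly49 receptors of NK cells, had no count.

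Among 11 chemokines tested, 5 were called (45.5%), 2 higher in CD8+ and 3 in CD4+ cells, and 2 without the pool term. Xcl1, which attracts cross-presenting dendritic cells, was at 43.2 and 22.4 CPM in CD8+ and 8.74 and 4.29 CPM in CD4+ cells. Its call was lost in edgeR without the pool term (adjusted p = 0.131). Ccl5 was at 105 and 98.4 CPM in CD8+ against 69 and 70.4 CPM in CD4+ cells. Ccl1 was at 55.5 and 36.4 CPM in CD4+ and 14.3 and 10.4 CPM in CD8+ cells. Ccl4 differed within the pools. It was at 86.2 and 21.8 CPM in CD4+ and 47.7 and 13.2 CPM in CD8+ cells, so that the groups overlapped. Yet it was lower in CD8+ cells within both pools (log2 -0.79, SE 0.10, adjusted p = 0.00142). Without the pool term edgeR did not call it (adjusted p = 0.643).

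Helper genes had the highest share called of the 22 lists. Of 28 costimulatory and anergy genes of helper cells, 22 were called (78.6%), 20 of them higher in CD4+ cells, with a median log2 fold change of -0.66 over the list against 0.01 over all genes, and 12 were called without the pool term. Izumo1r, encoding the folate receptor 4 of anergic and regulatory cells, was at 21.3 and 21.1 CPM in CD4+ and 3.45 and 3.59 CPM in CD8+ cells. Tnfsf11 (RANKL) was at 20.6 and 15 CPM against 3.45 and 3.55, a call lost in edgeR without the pool term (adjusted p = 0.157). The 2 members higher in CD8+ cells were the costimulatory receptors Cd27 and Tnfrsf9 (4-1BB). Cd27 was at 183 and 153 CPM against 137 and 104, and Tnfrsf9 at 272 and 242 against 217 and 181. Both calls were lost in edgeR without the pool term (adjusted p = 0.126 for Cd27 and 0.495 for Tnfrsf9). All 6 called of 12 follicular helper genes (50%) were higher in CD4+ cells, Maf, Il21 and Cd200 among them.

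Of 22 effector cytokines tested, 11 were called (50%, against 14.4% of all genes), 10 higher in CD4+ and 1 in CD8+ cells (Spp1, osteopontin). Without the pool term 3 were called. Tnf was at 31.5 and 18.9 CPM in CD4+ and 16.2 and 10.5 CPM in CD8+ cells (log2 -0.91, SE 0.13, adjusted p = 0.00342). Its call was lost in edgeR without the pool term (adjusted p = 0.113). Penk, a precursor of enkephalins, was at 12.7 and 20.6 CPM against 5.35 and 6.45, and its call too was lost there (adjusted p = 0.142). Il2, Il3, Csf2 and Il10 were also higher in CD4+ cells within each pool, although Il2 and Il3 were at 2.08 CPM or less in all 4 libraries. Il10, an inhibitory cytokine, was at 106 and 30.5 CPM in CD4+ and 54.9 and 24.1 CPM in CD8+ cells, and for it and for Csf2 the groups overlapped. Ifng was at 386 and 153 CPM in CD4+ and 332 and 118 CPM in CD8+ cells, differing more between the pools than between the subsets (log2 -0.30, adjusted p = 0.426). Il4, Il5, Il9, Il17a, Il17f and Il22 were each under 1 CPM in all 4 libraries. Of 15 regulatory T cell genes, 6 were called (40%), 5 higher in CD4+ cells and 1, Foxp3, higher in CD8+ cells at 7.29 and 8.94 CPM against 3.38 and 3.42 (adjusted p = 0.0368). Only 2 of the list were called without the pool term, and with a single pair 2 or 3, none of them higher in CD8+ cells, so that the call of Foxp3 was lost in each case.

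Interferon-stimulated genes gave the most calls in a single direction of the 22 lists. Of 56 tested, 37 were called (66.1%) and all 37 were higher in CD4+ cells. The median over the list was -0.59, 55 of the 56 values were below 0, and 17 were called without the pool term, all in the same direction. Ifi27l2a was at 118 and 98 CPM in CD4+ and 25.1 and 23.6 CPM in CD8+ cells (log2 -2.14, SE 0.22, adjusted p = 5.64e-04). Slfn5, of the Schlafen family, was at 25.4 and 27 CPM against 4.82 and 7.27, and Iigp1 at 32.5 and 17.8 against 3.40 and 2.53. Guanylate-binding proteins, which attack vacuoles of intracellular microbes, were higher in CD4+ cells in each of the 6 listed, with Gbp2 at 152 and 138 CPM against 55.2 and 54.7 and Gbp6 at 49.3 and 47.6 against 13.4 and 13.1. Mx1, Irf7, Ifit2, Psmb8 and Psmb9 were among the 19 not called.

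These genes are known to respond through a promoter element called the interferon-stimulated response element, searched here as GAAA, any 2 bases (NN) and GAAA in a row, or on the other strand TTTC, NN and TTTC. It occurred in 3.11% of the 9506 windows, in 22 of 40 listed interferon-stimulated genes with a window (55%) and in 16 of 26 of those called (61.5%). Among all genes at least 2-fold higher in CD4+ cells the share was 11.1%, and among those at least 2-fold higher in CD8+ cells 4.74%. The list was made of genes of this response, so the share within it follows from its choice. The windows of Slfn1 and Slfn2, with log2 fold changes of -1.55 and -1.17, held no match. Windows of 4 members that hold a match are printed in the same way, each with its 1 match in capitals.
Gbp2, chr3:142620413-142620712, plus strand: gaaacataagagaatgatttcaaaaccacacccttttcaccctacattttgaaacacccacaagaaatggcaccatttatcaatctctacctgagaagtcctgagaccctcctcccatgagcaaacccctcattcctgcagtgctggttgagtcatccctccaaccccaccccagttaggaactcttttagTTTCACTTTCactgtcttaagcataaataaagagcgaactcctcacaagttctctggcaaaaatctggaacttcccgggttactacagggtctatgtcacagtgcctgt
Slfn5, chr11:82951852-82952151, plus strand: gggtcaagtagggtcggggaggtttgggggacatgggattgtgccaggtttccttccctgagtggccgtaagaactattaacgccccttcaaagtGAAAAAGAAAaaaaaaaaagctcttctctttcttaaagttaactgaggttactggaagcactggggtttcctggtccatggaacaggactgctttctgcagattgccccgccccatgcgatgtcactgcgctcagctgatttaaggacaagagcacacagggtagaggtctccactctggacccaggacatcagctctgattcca
Oas3, chr5:120777610-120777909, minus strand: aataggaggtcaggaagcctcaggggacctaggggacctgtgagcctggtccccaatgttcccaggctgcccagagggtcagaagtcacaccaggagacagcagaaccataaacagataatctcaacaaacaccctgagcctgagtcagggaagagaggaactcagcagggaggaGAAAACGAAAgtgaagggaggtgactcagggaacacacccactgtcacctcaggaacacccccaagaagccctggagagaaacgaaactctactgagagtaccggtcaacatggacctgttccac
Igtp, chr11:58199306-58199605, plus strand: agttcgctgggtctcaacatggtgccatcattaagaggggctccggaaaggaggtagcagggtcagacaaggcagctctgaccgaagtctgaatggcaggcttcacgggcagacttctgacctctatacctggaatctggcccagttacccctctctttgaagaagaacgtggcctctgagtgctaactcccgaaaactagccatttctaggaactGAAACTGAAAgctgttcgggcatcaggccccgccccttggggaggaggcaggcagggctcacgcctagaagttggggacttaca
Oas3, an antiviral sensor, was at 63.2 and 47.2 CPM in CD4+ and 31.9 and 22 CPM in CD8+ cells, and Igtp, an interferon-induced GTPase, at 176 and 172 CPM against 93 and 86.5.

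**Figure D3:**
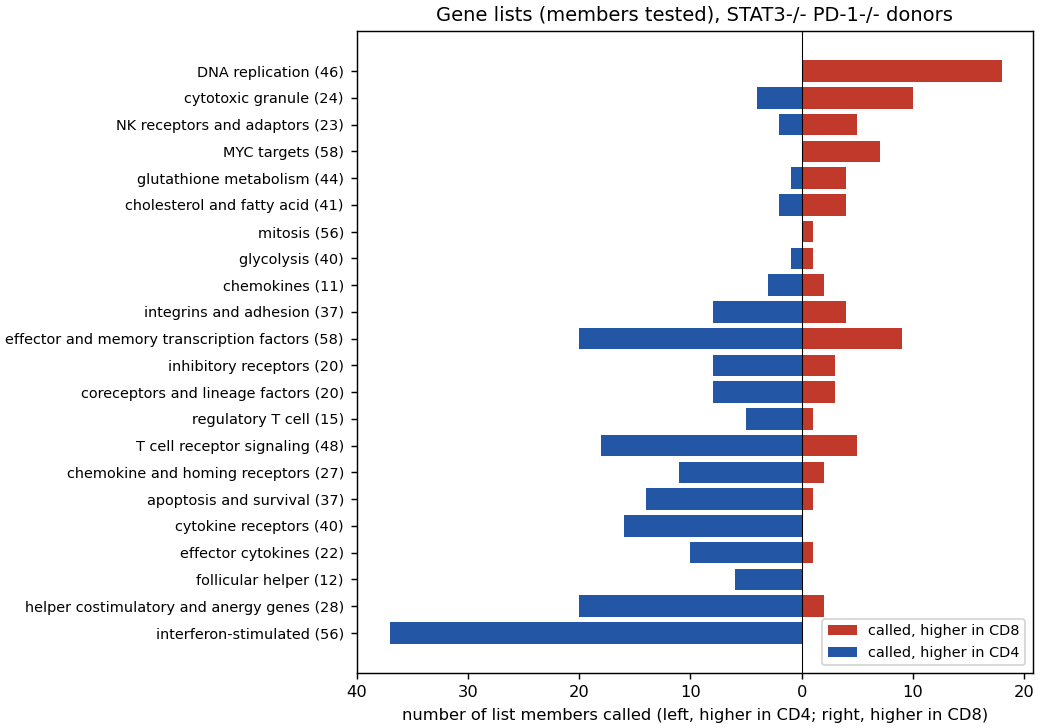
Number of members called in each of 22 gene lists, CD8+ against CD4+ T cells of STAT3-/- PD-1-/- donors. Bars to the right count members higher in CD8+ and bars to the left members higher in CD4+ cells, with the number of members tested in brackets. DNA replication (18 of 46) points only to CD8+ cells and the interferon-stimulated list (37 of 56) only to CD4+ cells.

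Some genes of DNA replication were slightly higher in CD8+ cells. Of 46 tested, 18 were called (39.1%), all higher in CD8+ cells, with a list median of 0.33, and all 46 values were above 0. Without the pool term none was called, 16 having an unadjusted p under 0.05 in edgeR, while DESeq2 with the pool term called 15. With either pair alone none was called. Mcm6, a subunit of the replicative helicase, was at 537 and 590 CPM in CD4+ and 719 and 786 CPM in CD8+ cells (log2 0.42, adjusted p = 0.0146). Pole, the catalytic subunit of DNA polymerase epsilon, was at 211 and 225 CPM against 288 and 325, and Lig1 (DNA ligase 1) at 316 and 330 against 423 and 459. For mitosis genes, 1 of 56 was called (1.79%), the checkpoint kinase Bub1b at 300 and 255 CPM in CD8+ against 235 and 200 in CD4+ cells, with a list median of 0.16. DESeq2 also called 1, and without the pool term edgeR called none, at an unadjusted p under 0.05 also 0.

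Metabolic lists held few differences. Of 40 glycolysis genes 2 were called (5%), of which Eno3, the muscle-type enolase, was at 77.1 and 78.1 CPM in CD8+ and 25.4 and 25.6 CPM in CD4+ cells (log2 1.6, SE 0.10, adjusted p = 6.44e-05). Of 44 glutathione genes 5 were called (11.4%), 4 higher in CD8+ cells, with Gsto1 at 96 and 121 CPM against 48.3 and 63.1. MYC targets gave 7 of 58 (12.1%), all higher in CD8+ cells, among them Pa2g4 at 384 and 442 CPM against 270 and 328. The median of the MYC list was 0.22, against 0.01 over all genes, and 53 of its 58 values were above 0. Without the pool term edgeR called none, with 4 at an unadjusted p under 0.05, and DESeq2 called 6. Cholesterol and fatty acid genes gave 6 of 41 (14.6%). When the pool term was left out, 1 glycolysis, 3 glutathione and 2 cholesterol and fatty acid genes were called. Each of these shares was at or near the 14.4% of all genes or below it.

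Receptors for cytokines and chemokines that were called were for the most part higher in CD4+ cells, while 24 of 40 and 14 of 27 were not called. All 16 called of 40 cytokine receptor and signaling genes (40%) were higher there, and 5 without the pool term. Il7r, the receptor chain for the survival cytokine IL-7, was at 457 and 382 CPM in CD4+ and 229 and 203 CPM in CD8+ cells (log2 -0.96, SE 0.13, adjusted p = 0.00235). The Il7r call was lost in edgeR without the pool term (adjusted p = 0.0585). Of 27 chemokine and homing receptors 13 were called (48.1%), 11 higher in CD4+ cells, with the gut-homing receptor Ccr9 at 48.9 and 36.1 CPM against 10.9 and 11.1 and the ATP-gated channel P2rx7 at 35.4 and 36.9 against 5.35 and 7.35. Without the pool term 4 were called. Integrins and adhesion genes divided between the subsets, with 4 higher in CD8+ and 8 in CD4+ cells among 37 (32.4% called). Itgax (CD11c) was at 27.8 and 20.2 CPM in CD8+ against 4.98 and 5.72, and Jaml, a costimulatory adhesion molecule, at 67.6 and 56.5 against 15.6 and 15.6. Ly6a (Sca-1) was at 426 and 400 CPM in CD4+ against 167 and 188, and Cd44 at 390 and 398 against 243 and 226.

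Inhibitory receptors did not move as a block. Of 20 tested, 11 were called (55%), 3 higher in CD8+ cells (Cd244a, Cd160 and Pdcd1) and 8 in CD4+ cells, and 4 without the pool term. Btla was at 114 and 85.3 CPM in CD4+ and 50 and 41.3 CPM in CD8+ cells. The ligand Cd274 (PD-L1) was at 94.3 and 92.4 against 55.4 and 48.5, a call lost in edgeR without the pool term (adjusted p = 0.365). For the receptors Havcr2 (385, 291, 412 and 321 CPM in CD4+ pools 1 and 2 and CD8+ pools 1 and 2), Lag3 (193, 158, 211 and 205), Tigit (252, 268, 214 and 261) and Ctla4 (667, 526, 574 and 493) no difference was detected, with adjusted p-values of 0.498, 0.243, 0.505 and 0.392.

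Genes of T cell receptor signaling were called in 23 of 48 (47.9%), 18 higher in CD4+ and 5 in CD8+ cells, and 8 without the pool term. Cd6 and Cd5, surface molecules that dampen receptor signals, were at 398 and 485 CPM and at 330 and 298 CPM in CD4+ cells, against 127 and 163 and 149 and 139 in CD8+ cells. Spry2, an inhibitor of the ERK pathway, was at 29.8 and 18.2 CPM in CD8+ against 12.5 and 6.31. The Spry2 call was lost in edgeR without the pool term (adjusted p = 0.508). Of 58 effector and memory transcription factors 29 were called (50%), 9 higher in CD8+ and 20 in CD4+ cells, and 9 without the pool term. Eomes, a T-box factor of cytotoxic and memory cells, was at 23.6 and 18.7 CPM in CD8+ against 7.79 and 8.66 (log2 1.35, SE 0.14, adjusted p = 7.33e-04), whereas its relative Tbx21 (T-bet) was at 162 and 76.9 CPM in CD4+ and 156 and 64 CPM in CD8+ cells and was not called. Klf3 was at 68.9 and 40.5 CPM in CD4+ against 23.5 and 12.2, and Ahr, the aryl hydrocarbon receptor, at 60.5 and 47 against 20.5 and 20.3. Apoptosis and survival genes gave 14 higher in CD4+ cells and 1, Bmf, in CD8+ cells, of 37 (40.5% called). Without the pool term 3 were called, and 1 or 2 with a single pair, and the call of Bmf was lost in each case (adjusted p = 0.54 without the pool term). The inflammatory caspases Casp1 (115 and 104 CPM against 52.3 and 43.3) and Casp4 (83.3 and 69.3 against 32.3 and 29.1) were among them.

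RNA of other liver and blood cells was scarce, but some of their marker genes differed between the sorts. Of 21 B cell and plasma cell markers, 16 were under 1 CPM in all 4 libraries and Ms4a1, Blnk, Fcer2a and Fcmr had no count. Their sum was 80.2 and 91.2 CPM in CD4+ and 29 and 30.7 CPM in CD8+ cells, led by Cd22 at 41.7 and 43 against 13.8 and 14.5 and by Cd74 at 30.1 and 38.2 against 5.92 and 7.51, while Cd79a was at 0.199 CPM or less. H2-Ab1, a class II MHC gene, was higher in CD4+ cells, at 4.67 and 5.6 CPM against 1.11 and 1.18, and Cd79b in CD8+ cells, at 5.92 and 5.10 against 1.73 and 1.39. Markers of macrophages, monocytes and dendritic cells summed to 120 and 117 CPM in CD4+ and 179 and 167 CPM in CD8+ cells. Of 27 such genes 21 were under 1 CPM, Lyz1, Siglech and Clec9a had no count, and the sum was led by Cst3. Itgax, Cd68 and Batf3 were the members called, all higher in CD8+ cells. Hepatocyte markers summed to 5.45 and 15.7 CPM in CD4+ and 7.51 and 15.8 CPM in CD8+ cells, led by Apoe, with 26 of 30 under 1 CPM and Alb at 0.449 CPM or less, and so followed the pool and not the subset. NK, NKT and γδ T cell genes summed to 157 and 152 CPM in CD4+ and 717 and 565 CPM in CD8+ cells, led by Gzma, a gene cytotoxic T cells also express. The erythroid list (sums from 125 to 203 CPM) was nearly all Tfrc, the transferrin receptor of dividing cells, with the 6 globin genes at 0. Neutrophil and endothelial or stellate lists summed to at most 9.06 CPM in any library, Egfl7 and Eng of the latter being higher in CD8+ cells, at 4.95 and 5.51 against 1.17 and 1.95 CPM for Egfl7. What part the genes of these lists have in the differences above was not tested.

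The same contrast in the other 2 donor genotypes shows where STAT3-/- PD-1-/- cells differed. Under the same fit 2991 genes (24.3%) were called between CD8+ and CD4+ cells of WT donors and 3077 (24.9%) in STAT3-/- donors, and 1177 genes were called in all 3 genotypes, 1174 of them in one direction. Of the 1774 genes called in STAT3-/- PD-1-/- cells, 1316 (74.2%) were among those of WT, which is 44% of the WT calls, and 270 were called in this genotype alone, a statement about thresholds and not a test. The CD8-CD4 difference itself differed from that of WT in 84 genes (0.681%) and from that of STAT3-/- in 22 genes (0.178%). In 53 of the 84 the difference was smaller than in WT and of the same direction, in 5 it was larger and in 26 it had the opposite sign, and for STAT3-/- the counts were 17, 0 and 5. These counts depended on the pairing, since without the pool term edgeR called 1 and 0 genes (547 and 443 at an unadjusted p under 0.05), against 187 and 85 with DESeq2. Leaving out any library of STAT3-/- PD-1-/- donors left 3 and 0, with between 564 and 612 genes at an unadjusted p under 0.05 for the second count.

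**Figure D4:**
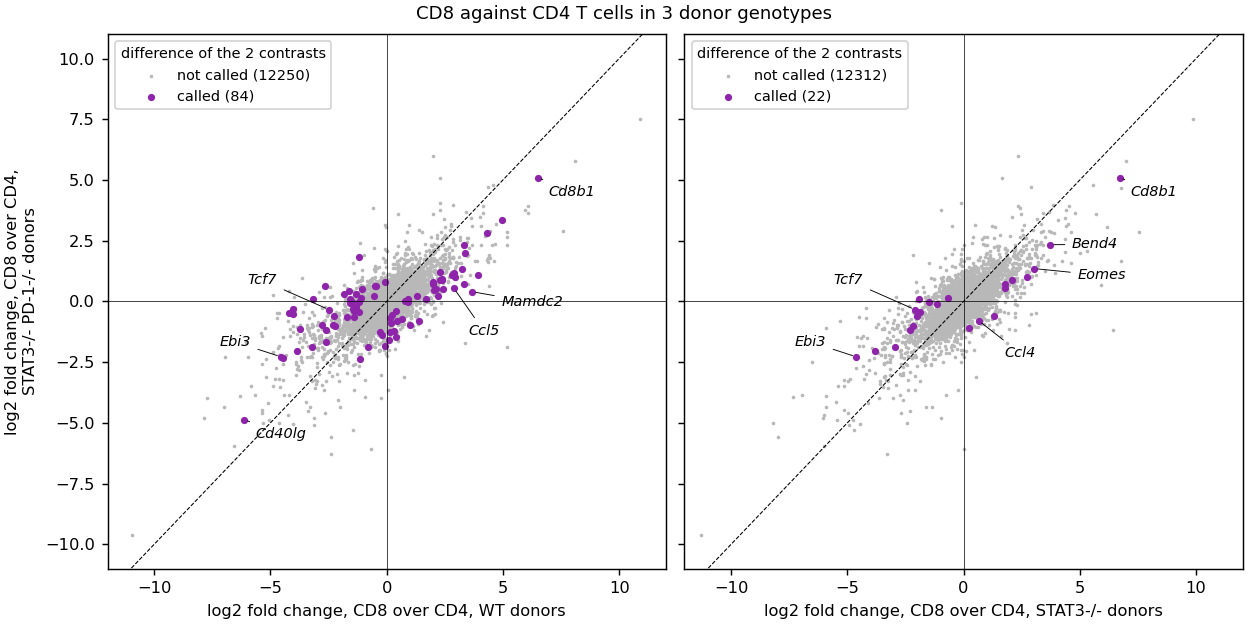
Log2 fold change of CD8+ over CD4+ T cells in STAT3-/- PD-1-/- donors (y axis) against WT donors (left, x axis) and STAT3-/- donors (right, x axis), one point per gene tested. Purple marks the 84 and 22 genes whose differences were called different between genotypes, and the dashed line marks equal differences. In 53 of the 84 and 17 of the 22 the difference was smaller than in the other genotype and of the same sign.

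Among genes higher in CD4+ cells of WT donors, 4 are described whose CD8-CD4 difference was smaller here. Tcf7, encoding TCF-1 of naive and stem-like T cells, was at 134 and 188 CPM in CD4+ and 26.9 and 30.2 CPM in CD8+ cells of WT donors. In STAT3-/- PD-1-/- cells it was at 18 and 24.7 CPM in CD4+ and 11.9 and 22.8 CPM in CD8+ cells, with overlapping groups and CD8+ the lower within both pools (log2 -0.34, SE 0.14, adjusted p = 0.151), and the CD8-CD4 difference was 2.14 above that of WT (SE 0.19, adjusted p = 0.00513). Ikzf2 (Helios) was at 84 and 73.4 CPM in CD4+ and 31.5 and 25.5 CPM in CD8+ cells of WT donors, and at 43.7, 28.2, 43.4 and 27.5 CPM in the 4 libraries of STAT3-/- PD-1-/- donors (log2 differences within the pools of -0.01 and -0.04). Ebi3, a subunit of IL-27 and IL-35, was at 8.73 and 12.3 CPM in CD4+ and 0.534 and 0.359 CPM in CD8+ WT cells but at 3.36 and 4.69 CPM in CD8+ cells here, against 17.2 and 21.6 in CD4+, so that the subsets stayed apart (log2 -2.27, adjusted p = 9.41e-05). Asb2 lost distance on the CD4+ side, from 74 and 92.9 CPM in WT to 19.1 and 19.3, with CD8+ cells at 5.34 and 6.07 CPM in WT and 5.22 and 4.29 CPM here, and it too was still called (log2 -2.02, adjusted p = 2.03e-04).

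Among CD8+ genes, Ccl5 had the clearest change of contrast. It was at 396 and 357 CPM in CD8+ and 47.8 and 53.5 CPM in CD4+ cells of WT donors, and at 105 and 98.4 against 69 and 70.4 here, a difference between contrasts of -2.35 (SE 0.13, adjusted p = 0.00101) that was also called without the pool term (adjusted p = 6.14e-04). Eomes was 30.3 and 29.7 CPM in CD8+ and 3.46 and 2.88 CPM in CD4+ cells of WT donors, so that its level was lower in CD8+ and higher in CD4+ cells of STAT3-/- PD-1-/- donors than in WT, and its contrast differed by -1.89 (SE 0.22, adjusted p = 0.0127). Adamts14, an extracellular protease, was at 75.5 and 79.2 CPM in CD8+ and 8.23 and 11.9 CPM in CD4+ WT cells, and at 94 and 93 CPM in CD8+ and 51.2 and 41.5 CPM in CD4+ cells here. Ccl4 reversed, from higher in CD8+ cells of WT (85 and 73.1 against 68.4 and 50 CPM) to lower. In all, 16 genes differed from both WT and STAT3-/-, each in the same direction against the 2, and the 2 tests share the 4 libraries of STAT3-/- PD-1-/- donors. Cd8b1 was one of them, with a contrast that differed by -1.40 from WT and by -1.62 from STAT3-/-. It was at 1033 and 1056 CPM in CD8+ cells of WT and 1037 and 1184 CPM in those of STAT3-/- donors, against 554 and 584 here. In CD4+ cells it was at 13.2 and 10 CPM in WT and 11.7 and 9.42 CPM in STAT3-/- donors, against 14.1 and 19.4 here. Pool 1 here thus lay close to WT pool 1, and levels within a subset were not tested between genotypes.

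Cell cycle genes had smaller median differences here than in the other genotypes. Of 46 DNA replication genes 42 were called higher in CD8+ cells in WT and 42 in STAT3-/- donors, against 18 here, with list medians of 0.67, 0.69 and 0.33. Over all genes the share called was also smaller here, 14.4% against 24.3% in WT and 24.9% in STAT3-/- donors, which bears on every count of this paragraph. Of 56 mitosis genes 52, 51 and 1 were called, with medians of 0.60, 0.66 and 0.16. For no gene of either list did edgeR call the difference from WT or from STAT3-/-, although 21 and 24 replication genes (45.7% and 52.2%) and 37 and 43 mitosis genes (66.1% and 76.8%) had an unadjusted p under 0.05, against 1316 and 1214 of all genes tested (10.7% and 9.84%). DESeq2 called 0 and 0 replication genes and 1 and 4 mitosis genes. Interferon-stimulated genes went the other way, with 19 of 56 higher in CD4+ and 3 in CD8+ cells in WT, 33 and 1 in STAT3-/-, and 37 and 0 here, and medians of -0.22, -0.42 and -0.59. For 3 of the 56 the difference from WT was called and for none that from STAT3-/-, with 31 and 20 (55.4% and 35.7%) at an unadjusted p under 0.05 and 8 and 2 called by DESeq2. NK-type receptors had a median of 1.68 in WT, 0.45 in STAT3-/- and 0.41 here, with 16, 7 and 5 called higher in CD8+ cells, and edgeR called the difference from WT in 3 and that from STAT3-/- in none, with 11 and 4 (47.8% and 17.4%) at an unadjusted p under 0.05 and 4 and 1 called by DESeq2. Effector cytokines had medians of -1.77, -1.05 and -0.66, and edgeR called the difference from WT in 1 of 22 and that from STAT3-/- in none, with 11 and 6 at an unadjusted p under 0.05 and 5 and 1 called by DESeq2.

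**Figure D5:**
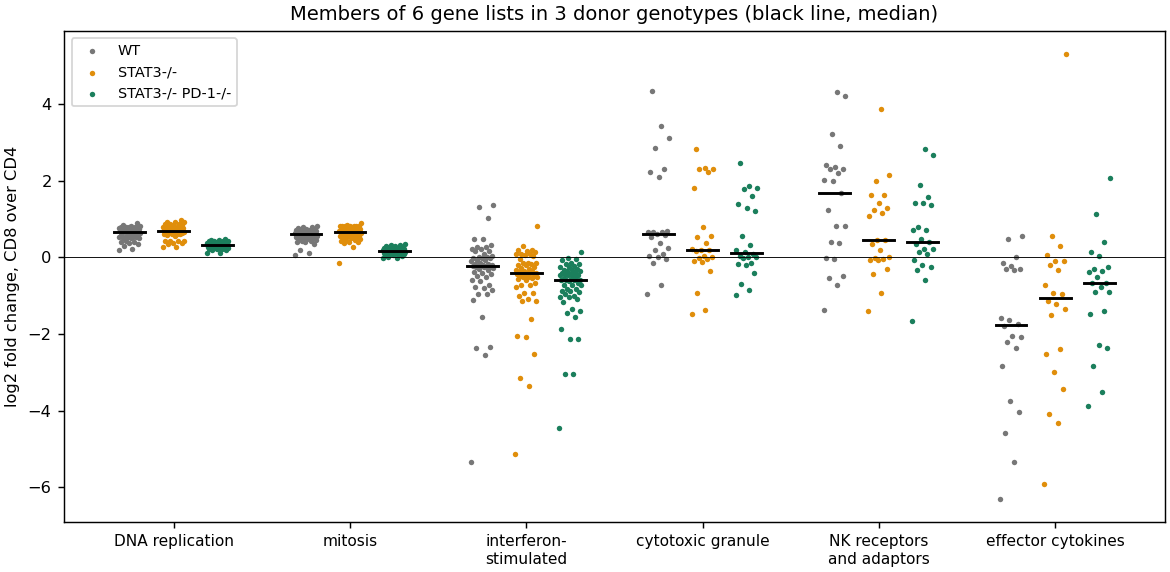
Log2 fold change of CD8+ over CD4+ T cells for the tested members of 6 gene lists (one point per gene) in WT (grey), STAT3-/- (orange) and STAT3-/- PD-1-/- donors (green), with the list median as a black line. DNA replication medians run 0.67, 0.69 and 0.33, mitosis medians 0.60, 0.66 and 0.16, and interferon-stimulated medians -0.22, -0.42 and -0.59.

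Pools varied beside the subsets. In STAT3-/- PD-1-/- donors 49 genes of at least 8 CPM on average were 2-fold or more higher in pool 1 than in pool 2 in both subsets, and 3 were higher in pool 2. Il21, Ifng, Ccl4, Pdcd1, Zbtb7b and Tbx21, whose values are given above, were higher in pool 1 in both subsets. Rn45s, the precursor of ribosomal RNA, took 18590 CPM in CD4+ pool 1 against 6636 to 8135 CPM in the other 3 libraries, a library difference that follows neither pool nor subset.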

How the data were processed

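The deposited table held 12 libraries of poly(A) RNA from sorted liver T cells, read as single 51-base reads. The authors aligned them to mm10 with STAR 2.7 and made raw counts per RefSeq gene with Htseq-count 0.11, and their own testing used edgeR 3.32.1. RPKM values and the exon length per gene were deposited beside the counts, and RPKM served for 1 alternative and exon length for levels per kilobase. The growth and extraction notes in the labels describe another cell system and were not used. Library totals ran from 21676125 to 24551477 counts.

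Counts were fitted here with edgeR 4.0.16 (R 4.3.3): trimmed mean of M values scaling, filterByExpr by group (minimum count 10, total 15), and a quasi-likelihood model over all 12 libraries with a term for each pool and a CD8 coefficient for each genotype, leaving 3 residual degrees of freedom. P-values were adjusted by Benjamini-Hochberg over 12334 genes, and a gene was called at an adjusted p under 0.05. The SE is the log2 fold change divided by the square root of F. Pairing by replicate number follows the study's statement that both subsets came from the same livers. The study does not say which replicate numbers share livers, so the pairing is an assumption. As a check, deviations of same-numbered libraries correlated at 0.664 (WT donors), 0.66 (STAT3-/-) and 0.877 (both deletions), against 0.0979 to 0.601 for other pools. The WT and STAT3-/- values thus lay little above the highest of other pools. Replicates differed by more than sampling noise. The script was tested on simulated data. DESeq2 1.42.0, limma 3.58.1 and other filters, scalings and sample sets served as alternatives.

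Genes were named by rule: Pdcd1, Stat3, Cd4, Cd8a, Cd8b1, Zbtb7b and Runx3, up to 3 called members per list and direction, the 10 largest differences each way (both requiring a mean log2 CPM of 3 or more and separate subsets), up to 5 genes each way per genotype test, and markers of other cells. Genes of the genotype tests also required a mean log2 CPM of 3 or more. Further members are named for their roles, some after their values were seen. The comparison, gene lists and rules were chosen with earlier results of these data known. Figures used matplotlib 3.10.9.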

Additional observations from a re-analysis of the deposited data

Results flagged for a closer look

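The difference between CD8+ and CD4+ T cells itself differed between donor genotypes, by a test of the interaction, in 84 genes against WT and in 22 genes against STAT3-/- donors. Positive values mean that CD8+ stood higher relative to CD4+ cells in STAT3-/- PD-1-/- donors. Only genes with a mean log2 CPM of 3 or more were ranked here, and genes below that limit can differ by more. Against WT the largest positive differences on the log2 scale were 2.28 for Ebi3, 2.14 for Tcf7, 2.11 for Tnfsf11, 2.05 for Lrp1 and 1.85 for Asb2. The largest negative ones were -3.29 for Mamdc2, -2.85 for Faxc, -2.35 for Ccl5, -2.01 for Ifit1bl1 and -1.97 for Klrb1c. Against STAT3-/- the largest positive differences under the same limit were 2.35 for Ebi3, 1.78 for Asb2, 1.75 for Tcf7, 1.46 for Ikzf2 and 1.43 for Ajuba. The negative ones were -1.71 for Adamts14, -1.69 for Eomes, -1.62 for Cd8b1, -1.45 for Ccl4 and -1.40 for Bend4. Mamdc2 was at 0.0909 and 0.0847 CPM in CD4+ and 1.07 and 1.32 CPM in CD8+ cells of WT donors, so its value rests on a WT group near 0, and at 17 and 17 against 21.1 and 23.8 CPM here, where the subsets were not called different (edgeR adjusted p = 0.118). All 20 differences listed were also called by DESeq2 with the pool term, and 1 (Ccl5 against WT) by edgeR without it. Both tests use the same 4 libraries of STAT3-/- PD-1-/- donors.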

How the results depend on the processing

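The count of 1774 genes stayed within 1.5 times under DESeq2 (1303), DESeq2 size factors (1782), no filter (1506), at least 10 counts in every library (1474) and limma on log2(RPKM + 1) (1573). It was 582 at a fold of at least 2, 5519 in a fit of the 4 libraries with the replicate block (1 residual degree of freedom), 511 with no replicate block (all 511 shared with the 1774) and 201 in 4 libraries without the block. Leaving out 1 library gave 305 to 2150, the lowest without a STAT3-/- PD-1-/- library. For the difference from WT (84 genes) no replicate block gave 1, DESeq2 187 and leaving out 1 library 3 to 225. For the difference from STAT3-/- (22 genes) they gave 0, 85 and 0 to 35, and a minimum of 10 counts in every library 8. The cause of these shifts was not tested.

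List counts with no replicate block were 6 for coreceptors, 6 for granule genes, 12 for helper genes, 2 for regulatory T cell genes, 3 for cytokines, 2 for chemokines, 4 for homing receptors, 9 for transcription factors, 4 for inhibitory receptors, 5 for cytokine receptors, 8 for T cell receptor signaling, 3 for glutathione, 1 for glycolysis, 0 for MYC targets, 2 for cholesterol, 0 for DNA replication, 0 for mitosis, 17 for interferon-stimulated genes and 3 for apoptosis. DESeq2 gave 1 for glycolysis and 3 for cholesterol. With 1 pair left, fewer members of nearly every list were called than with both pairs. The follicular helper list with pool 1 alone was the exception. Of 99 named genes called between subsets, 62 were called without the block, 95 by DESeq2 and 62 with either pair alone. Stat3, not called, was 0.04 in all libraries, -0.029 without pool 2 and 0.10 without pool 1 of either subset. An exact permutation test of 2 against 2 libraries cannot go below p = 0.333, so the calls rest on the spread that edgeR pools over genes and genotypes.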
